A study of Homo sapiens with 3 samples.

Results

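ZNF is the symbol stem of human zinc finger genes, and every gene whose symbol is ZNF followed by digits and at most 1 letter was taken, other than ZNF750. These were 243 of the 8661 genes that could be named on these arrays, each represented by the 1 named probe with the highest mean signal. They belong to 562 such symbols in the RefSeq table of human genes. Of the 243, 238 are protein coding and 5 are transcribed pseudogenes. RNA came from LNCaP, an androgen-responsive human prostate cancer cell line. The cells had 24 h with ethanol as the vehicle, with 10 nM bufalin or with 20 nM bufalin, and all were kept in RPMI-1640 medium with 10% fetal bovine serum and no antibiotics. Bufalin is a toad venom steroid that blocks the sodium pump, and the comparisons ask how transcript levels differed with its concentration. Each treatment had 1 Illumina bead array, so no difference below has a replicate check, an error or a test.

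A zinc finger is a short protein fold held together by a zinc ion, and tandem fingers of the kind most ZNF proteins carry read DNA bases in turn. Many of these proteins also hold a KRAB domain, which binds the corepressor TRIM28. TRIM28 brings the histone methyltransferase SETDB1 and heterochromatin proteins to the bound site, often a transposable element. Many ZNF genes lie in clusters of related copies, the largest on chromosome 19, and their transcripts are as a rule scarce. Probes for close paralogs may share signal, which was not tested.

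Detected probes numbered 14664 with vehicle, 14735 at 10 nM and 14612 at 20 nM of 47323 in all, where detected means a detection p-value below 0.01 against the negative control beads. Names were at hand only for probes that the authors' smaller table kept, and nearly all of those differed in signal by at least 10% from vehicle at either dose. ZNF genes that differed less are mostly absent from every count. Of 12 luminal prostate and LNCaP marker genes, 10 were named and all 10 were detected. At 20 nM, 2 of them were at least 2-fold higher than in vehicle and 4 lower, beside 14.7% and 16.6% of all named genes. TMPRSS2 was 3.75-fold and FOLH1 2.13-fold higher. KLK2, undetected at 20 nM, was at least 4.70-fold lower, SPDEF 4.57-fold, STEAP2 3.21-fold and SLC45A3 3.13-fold lower. None of 4 basal prostate markers was among the named genes, which says nothing of their level, and 1 of 4 neuroendocrine, 3 of 5 stromal and 3 of 5 leukocyte markers were. Of these, the stromal marker TAGLN was 2.42-fold higher at 20 nM, the leukocyte marker HLA-DRA 3.26-fold higher, and CD14, undetected in vehicle, at least 2.91-fold higher, and their part in the ZNF results was not tested. The luminal transcript KLK3, which encodes prostate-specific antigen, had signals of 252, 238 and 187 units on the vehicle, 10 nM and 20 nM arrays.

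Signals are deposited intensities in arbitrary units. They hold a background fitted at 112.9 units on the vehicle array, 113.6 units on the 10 nM array and 115.8 units on the 20 nM array. Log2 fold changes were taken after background correction, addition of 16 units and quantile normalization, and 2-fold, a log2 of 1, was the threshold for calling a gene higher or lower. A fold is written "at least" where a probe was detected on 1 array of the pair only. Brightness also depends on the probe's own sequence, so the signals of different genes do not rank their RNA levels.

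ZNF genes were dim. Their mean signal over the 3 arrays ran between 122 and 6153 units with a median of 208.0 units, against a median of 331.6 units over the 8418 other named genes. On all 3 arrays 178 ZNF genes were detected, and 6 were detected on none.

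At 20 nM, ZNF genes past 2-fold lay on both sides of vehicle. Of 235 detected on at least 1 of these arrays, 41 were at least 2-fold higher at 20 nM, which is 17.4% of them against 14.7% of the 8346 detected named genes. Another 35 were at least 2-fold lower, 14.9% against 16.6% of the named genes. The other 159 were within 2-fold. The median log2 fold change was -0.14 for ZNF genes and -0.10 for all named genes, and single ZNF genes ran between -2.80 and 2.84. The shares lie near those of all named genes. Over the 181 ZNF genes detected on both arrays the median was 0.14, so its sign turns with the detection filter.

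**Figure D1:**
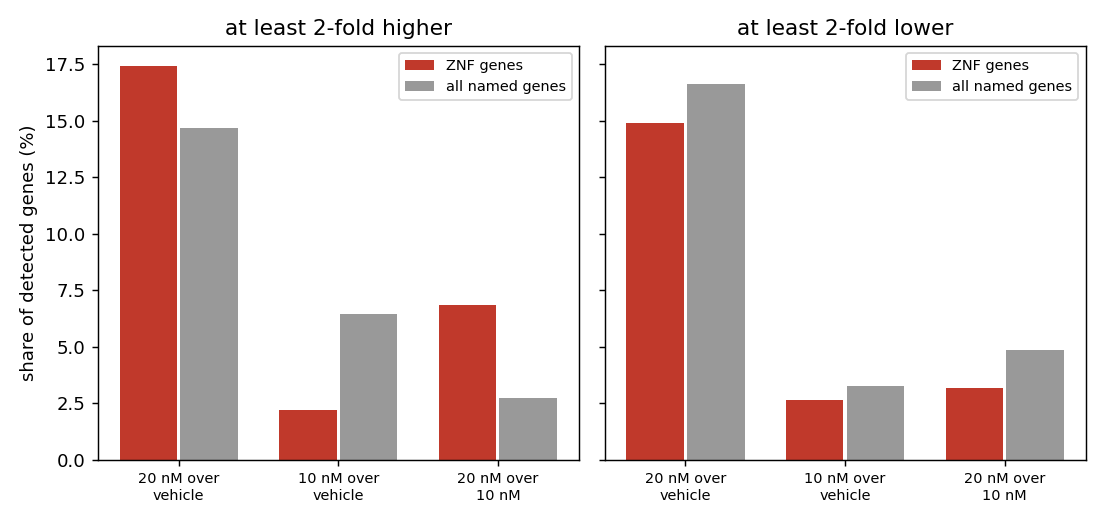
Share of detected genes, in percent, at least 2-fold higher (left panel) or lower (right panel) in each of the 3 comparisons, with ZNF genes in red and all named genes in grey. The 20 nM over vehicle bars nearly match (17.4% against 14.7% higher), while the 10 nM over vehicle bars of ZNF genes are shorter (2.20% against 6.46% higher).

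The ZNF gene farthest above vehicle at 20 nM was ZNF341, an activator of the STAT3 gene. Its probe had 147, 263 and 439.8 units on the vehicle, 10 nM and 20 nM arrays. The 20 nM value was 7.18-fold and the 10 nM value 3.32-fold that of vehicle, so the signals ascended with dose. ZNF654 is followed by 4 probes, and the one with the highest mean had 139, 187 and 309 units, a log2 fold change of 2.38 at 20 nM. Its 4 probes ran between 1.07 and 2.72 in log2 fold change, all of them past 2-fold by value. The probes at 2.72 and 2.23 were undetected in vehicle, so these are values and not bounds. ZNF165, a cancer-testis gene, had 292, 608 and 1088 units, 5.10-fold above vehicle at 20 nM and 2.61-fold at 10 nM.

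ZNF143 activates the promoters of small nuclear RNA genes and of many protein-coding genes. It had 332, 454 and 1234 units on the vehicle, 10 nM and 20 nM arrays, with a log2 fold change of 2.27 at 20 nM and 0.58 at 10 nM. Most of its difference therefore lay between the bufalin doses, where the log2 fold change was 1.69. ZNF644, a partner of the histone methyltransferases EHMT1 and EHMT2, had 289, 451 and 825 units and was 3.81-fold higher at 20 nM than in vehicle.

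Next in order of size, ZNF430 had 151, 169 and 265 units over the 3 arrays in dose order, 3.31-fold higher at 20 nM. ZNF212 had 217, 331 and 465 units and was 3.21-fold higher. ZNF77 had 172, 182 and 326 units and ZNF140 had 184, 207 and 355 units, so both stayed near vehicle at 10 nM and were 3.18-fold and 3.11-fold higher at 20 nM. ZNF398 had 183, 266 and 364 units on its brighter probe, a log2 fold change of 1.71. A dimmer ZNF398 probe had 145, 118 and 136 units and a log2 fold change of -0.31. It was detected on the vehicle array only, so it says little of whether the probes of this gene agree.

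Of the genes lower at 20 nM, ZNF239, also called MOK2 and able to bind DNA and RNA, lay farthest from vehicle. It had 602, 284 and 169 units on the vehicle, 10 nM and 20 nM arrays, 6.99-fold lower at 20 nM and 2.78-fold lower at 10 nM. ZNF485, its neighbour on chromosome 10, had 312, 202 and 146 units, 4.38-fold lower at 20 nM and 2.10-fold lower at 10 nM. Both descended with dose. ZNF839 had 369, 220.0 and 166 units and was 3.83-fold lower at 20 nM, and its dimmer probe, undetected at 20 nM, was at log2 -1.02. ZNF511 was the brightest gene of this group, with 2596, 1700.2 and 943 units and a log2 fold change of -1.59 at 20 nM.

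ZNF583 had 249, 177 and 141 units over the arrays in dose order and ZNF25 had 248, 175 and 143 units, 3.53-fold and 3.29-fold lower at 20 nM. Both 20 nM signals were close to the fitted background of that array. ZNF320 was 2.97-fold lower with 494, 351 and 227 units. The pseudogene ZNF252P was 2.96-fold lower with 544, 361 and 247 units. ZNF30 and ZNF883 were 2.89-fold and 2.68-fold lower, with 339, 232 and 178 units for ZNF30 and 267, 193 and 159 units for ZNF883. In these 10 genes the 10 nM signal lay between those of vehicle and 20 nM.

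**Figure D2:**
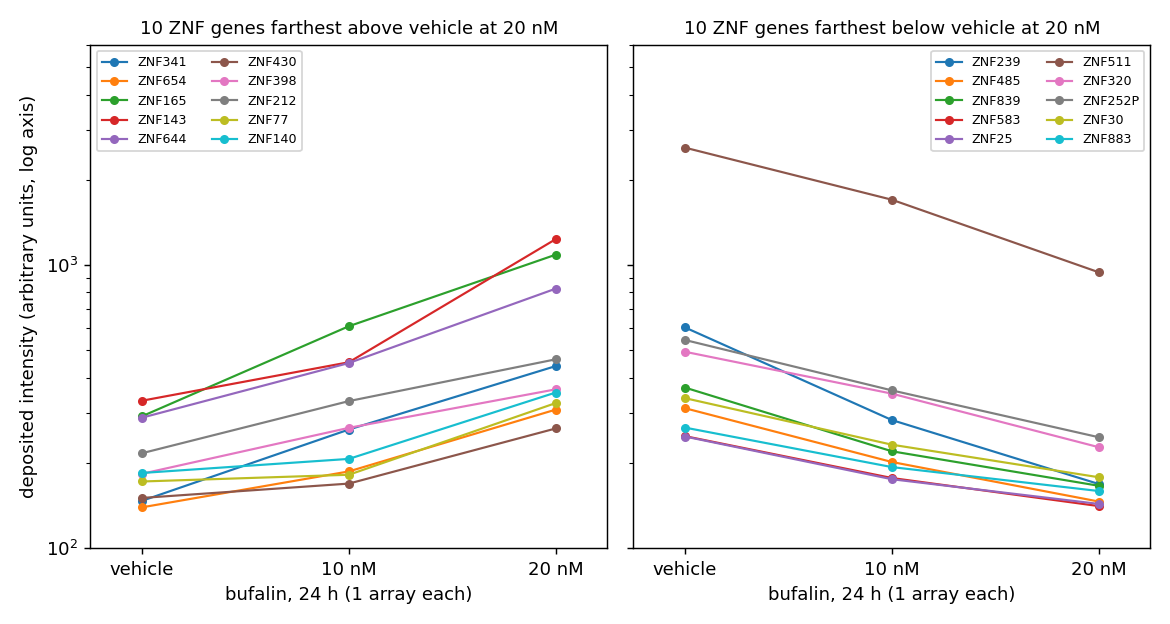
Deposited intensity (arbitrary units, log axis) on the vehicle, 10 nM and 20 nM arrays, 1 point per array, of the 10 ZNF genes farthest above vehicle (left) and the 10 farthest below it (right) at 20 nM among those detected on both arrays. Each line is 1 gene, and all 20 have the 10 nM point between the other two, for example ZNF165 at 292, 608 and 1088 units and ZNF239 at 602, 284 and 169 units.

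Among the 235 genes, 54 were detected on only 1 of the 20 nM and vehicle arrays, 19 of them at 20 nM and 35 on vehicle. Counted by value 8 of these were higher and 13 lower, and counted by bound 4 and 6. Of the 8346 detected named genes, 1226 were higher and 1389 lower by value, and 1107 and 1245 by bound. Among these, 1115 were detected on 1 array only. The 7231 detected on both arrays held 971 of the higher and 1110 of the lower, and the rest fell to the 1115. ZNF79 had 134, 151 and 252 units on the vehicle, 10 nM and 20 nM arrays, was undetected in vehicle and was at least 3.86-fold higher at 20 nM. ZNF714 was at least 3.46-fold, ZNF681 at least 2.78-fold and ZNF335, part of a histone methyltransferase complex, at least 2.24-fold higher in the same way. On the lower side ZNF74, an RNA-binding protein of the nuclear matrix, had 267, 169.6 and 132 units, was not detected at 20 nM and was at least 4.05-fold lower. ZNF362, ZNF17, ZNF471 and ZNF573, also not detected at 20 nM, were at least 3.06-fold, 2.73-fold, 2.49-fold and 2.34-fold lower.

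At 10 nM, far fewer ZNF genes were past 2-fold. Of 227 detected, 5 were higher, 2.20% against 6.46% of the 8233 detected named genes, and 6 were lower, 2.64% against 3.27%. The other 216 were within 2-fold, and the median log2 fold change was -0.17 against -0.04 for all named genes. The 20 nM and 10 nM comparisons share the vehicle array. ZNF341, ZNF165 and ZNF654, given above, were 3 of the 5. ZNF503, which acts in developmental patterning, had 138, 206 and 172 units on the vehicle, 10 nM and 20 nM arrays, was not detected on vehicle and was at least 2.57-fold higher at 10 nM, so its highest signal was at the lower dose. ZNF264 had 226, 356 and 474 units, log2 1.01 at 10 nM and 1.62 at 20 nM. ZNF148, which binds GC-rich promoters, lay just inside 2-fold at 10 nM with 362, 629.7 and 649.7 units.

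The 6 lower at 10 nM were ZNF239, ZNF485, ZNF839, ZNF74, ZNF696 and ZNF101. ZNF74 was detected on both of these arrays and was 2.41-fold lower at 10 nM. ZNF696 had 292, 189.6 and 170.3 units, log2 -1.11 at 10 nM and -1.36 at 20 nM. ZNF101 had 152, 122 and 131 units, was detected on the vehicle array only, and at its bound was at least 1.32-fold lower at 10 nM, under the threshold.

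Among genes detected on 1 array of the 10 nM and vehicle pair, the other bounds stayed under 2-fold. ZNF714, ZNF681, ZNF629 and ZNF79, undetected in vehicle, were at least 1.86-fold, 1.67-fold, 1.35-fold and 1.27-fold higher at 10 nM. ZNF215, ZNF470, ZNF45, ZNF37A and ZNF324B, undetected at 10 nM, were at least 1.53-fold, 1.41-fold, 1.40-fold, 1.39-fold and 1.39-fold lower.

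Between the bufalin doses, more ZNF genes were higher at 20 nM than lower. Of 219 detected at 20 nM or 10 nM, 15 were at least 2-fold higher at 20 nM, 6.85% against 2.73% of the 8195 detected named genes, and 7 were lower, 3.20% against 4.86%. Higher genes were 68.2% of those past 2-fold, and 56.5% (13 against 10) when the arrays were scaled by their medians in place of quantile normalization. Without background correction 1 gene was higher, 0.46% against 0.48% of all named genes, and none lower, against 0.93%. The 10 nM array is shared with the comparison against vehicle.

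Several of these genes stayed near vehicle at 10 nM. ZNF330, a nucleolar protein gene, had 408, 425 and 834 units on the vehicle, 10 nM and 20 nM arrays, with log2 1.18 between the doses. ZNF776 had 171, 186 and 307 units, log2 1.32. ZNF318 had 182, 236 and 159.5 units, so 10 nM was its highest array, and it was 2.17-fold lower at 20 nM than at 10 nM. ZNF792, ZNF362, ZNF74 and ZNF875 were also lower at 20 nM than at 10 nM by value, but none was detected at 20 nM and their bounds were at least 1.44-fold, 1.90-fold, 1.68-fold and 1.49-fold.

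Dim and bright ZNF genes were divided at the median of their mean signals, 208.0 units. The 122 bright genes had means between 208.0 and 6153 units with a median of 349 units, and each was detected on all 3 arrays. The 121 dim genes had means between 122 and 206 units with a median of 158 units. Of these, 56 were detected on 3 arrays, 29 on 2, 30 on 1 and 6 on none. ZNF883 at 206.4 units was the dim gene nearest the division, and ZNF513 at 208.0 units the nearest bright one. The same division puts 30.6% of the other named genes among the dim.

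The mean includes the bufalin arrays, so a gene's difference helps decide its side, and the direction of calls on each side is given as a description. Of the 122 bright genes, 26 were higher, 21.3% against 14.5% of bright named genes, and 16 were lower, 13.1% against 15.9%. Their median log2 fold change was 0.24, and that of the 5843 other bright named genes was -0.08. Of 113 detected dim genes, 15 were higher, 13.3% against 15.3% of dim named genes, and 19 were lower, 16.8% against 18.4%. The median of these 113 genes was -0.43, and that of the 2268 other dim named genes was -0.25. The 54 genes detected on 1 array only were all dim. Among the 59 dim genes detected on both arrays, 7 were higher and 6 lower and the median was -0.17. With 1-array genes at their bounds 11 were higher and 12 lower of 113. When the genes were divided at the median of the vehicle signal alone, a division chosen after the values were seen, 17 bright genes were higher and 24 lower, and 24 dim genes were higher and 11 lower. The fold is taken over the vehicle signal, so this division tilts dim genes to higher and bright genes to lower by construction. It therefore cannot decide the direction on either side. It had 41 bright and 35 dim genes past 2-fold. Divided by detection on all 3 arrays, 32 of 178 bright genes were higher and 22 lower, and 9 of 57 dim genes higher and 13 lower. With 3 equal parts by brightness, the brightest part had 18 higher and 10 lower, and the dimmest 7 and 11.

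At 10 nM against vehicle, 4 bright ZNF genes were higher, against 6.77% of bright named genes, and 4 were lower, against 2.65%. Of 105 detected dim genes, 1 was higher, against 5.64% of dim named genes, and 2 were lower, against 4.89%. Between the doses, 8 bright genes were higher at 20 nM, against 2.23%, and 2 were lower, against 4.66%. Of 97 detected dim genes, 7 were higher, against 4.08%, and 5 were lower, against 5.38%. The median log2 fold changes were 0.18 for bright and 0.03 for dim genes between the doses, and -0.03 and -0.27 at 10 nM against vehicle.

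**Figure D3:**
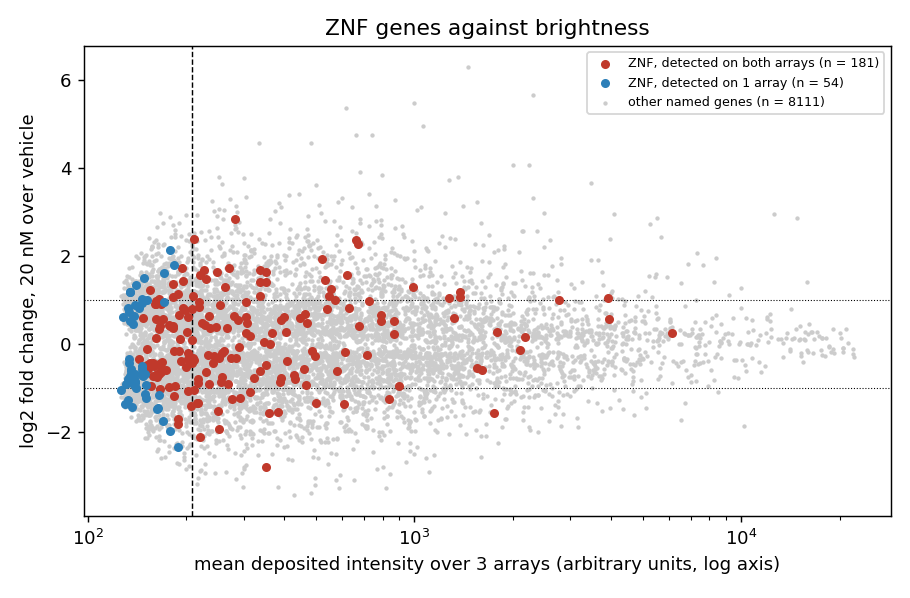
Log2 fold change of 20 nM over vehicle against mean deposited intensity over 3 arrays (arbitrary units, log axis) for ZNF genes detected on both arrays (red, n = 181) or on 1 array (blue, n = 54) and for other named genes (grey). The dashed line marks the division at 208.0 units and the dotted lines mark 2-fold. Values of ZNF genes lie on both sides of 0 among dim and among bright genes, but the 5 brightest are all above 0. Those detected on 1 array lie at the dim end.

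Most of the dim calls rested on small differences in signal. In the 42 bright genes past 2-fold, the deposited signals on the 20 nM and vehicle arrays differed by 80.0 to 2912 units, median 248 units. In the 34 dim genes past 2-fold they differed by 27.4 to 135 units, median 62.2 units. The 21023 probes with detection p-values over 0.1 on all 3 arrays, which carry little but background, differed between 20 nM and vehicle by a median of 2.76 units with a standard deviation of 6.45 units over probes. That selection leaves out the upper tail of the background, so 6.45 units may be too small. The background fitted on each array had a standard deviation of 7.95 units for vehicle and 8.22 units for 20 nM.

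Without background correction, 22 bright genes and 1 dim gene were past 2-fold at 20 nM, against 42 and 34 with it. All 23 were among the 76 called with correction, and the dim one was ZNF74. The 13 higher were ZNF330, ZNF398, ZNF217, ZNF264, ZNF212, ZNF791, ZNF263, ZNF654, ZNF823, ZNF644, ZNF341, ZNF143 and ZNF165. The 10 lower were ZNF239, ZNF511, ZNF593, ZNF252P, ZNF839, ZNF544, ZNF320, ZNF485, ZNF32 and ZNF74. Of the 20 genes with the farthest values described above, ZNF430, ZNF77, ZNF140, ZNF583, ZNF25, ZNF30 and ZNF883 were within 2-fold in that setting, at log2 0.84, 0.95, 0.99, -0.82, -0.78, -0.90 and -0.72. ZNF341 was at 1.61 there and ZNF239 at -1.83. Skipping the correction shrinks the fold of any dim gene, since the background enters both signals.

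**Figure D4:**
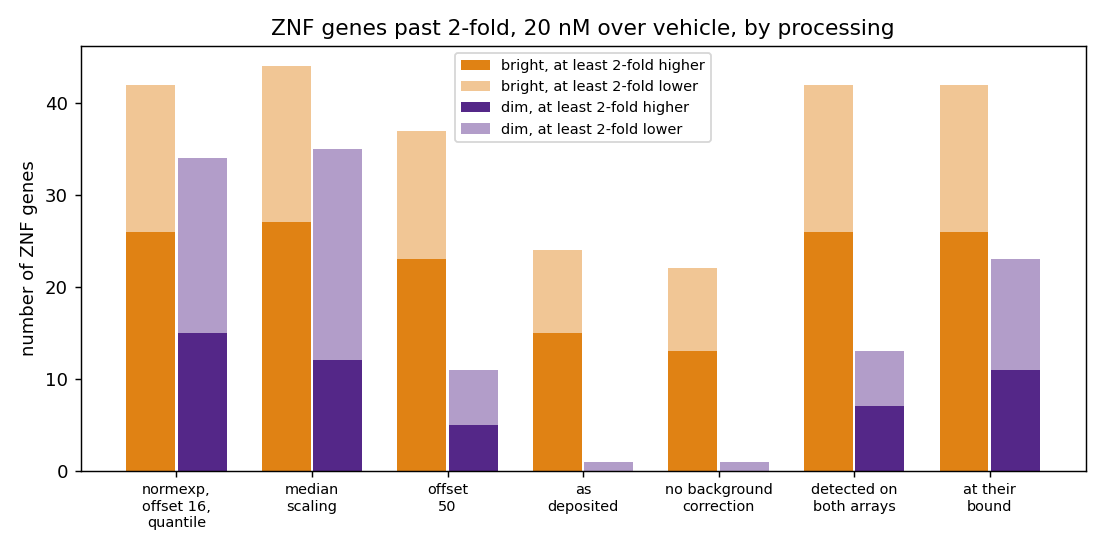
Number of ZNF genes at least 2-fold higher (solid) or lower (pale) at 20 nM than in vehicle, for bright (orange) and dim (purple) genes under 7 processing settings. In these settings bright genes keep between 22 and 44 calls, while dim genes have 34 in the main setting, 11 with an offset of 50 and 1 without background correction.

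Probes of the same gene give a second look at the dim side. At 20 nM, 38 ZNF genes had at least 2 detected probes, and their log2 fold changes spread with a pooled standard deviation of 0.56. It was 0.48 for 30 bright ZNF genes, 0.78 for 8 dim ZNF genes and 0.44 for 1820 other named genes. Among those others it was 0.44 for the 1590 bright and 0.45 for the 230 dim, so dim genes there did not spread more. The 8 dim ZNF genes have only 17 probes, with those of ZNF174 and ZNF597 among them. All probes lay on 1 side of 0 in 34 of the 38, and in 4 they did not. ZNF174 had the widest range, with probes between -1.19 and 0.94 and signals of 189, 163 and 138 units and 133, 148 and 164 units on the vehicle, 10 nM and 20 nM arrays. The probe at -1.19 was undetected at 20 nM and the one at 0.94 undetected in vehicle. ZNF69 had 933, 1297 and 1894 units on a bright probe, log2 1.05, and 209.6, 179 and 188 units on a dimmer one, log2 -0.23. ZNF597 had 117, 136 and 151 units, log2 1.17, on its brighter probe by mean and log2 -0.41 on the other. The brighter was undetected in vehicle and at its bound at least 1.32-fold higher, and the other was undetected at 20 nM. These spreads describe probes and not replicate cultures.

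Of the 8 brightest ZNF genes, ZNF549 and ZNF511 were past 2-fold at 20 nM. The pseudogene ZNF876P had 5230.2, 6199 and 7029.7 units on the vehicle, 10 nM and 20 nM arrays, log2 0.24 at 20 nM. Its dimmer probe, undetected in vehicle, gave 1.18. ZNF14 had 3100.0, 3769 and 4926 units, log2 0.56. ZNF549 had 2614, 3637 and 5526 units and was 2.04-fold higher at 20 nM, and just under 2-fold without background correction. ZNF394, a transcriptional repressor, had 1909, 2411 and 3967 units and a log2 fold change of 0.99. ZNF682 had 2245, 1807 and 2507 units, ZNF486 had 2237, 2012 and 2075 units and ZNF738 had 1664, 1672 and 2046 units, with log2 fold changes of 0.14, -0.14 and 0.27. ZNF511, given above, completes the 8.

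Of 28 genes on a fixed panel, 20 were measured at 20 nM or in vehicle, of which 8 were higher, 1 was lower and 11 were within 2-fold at 20 nM, beside 14.7% higher and 16.6% lower over all named genes. The panel was chosen with earlier results known. ZNF217, an oncogenic partner of corepressor complexes, had 857, 1422 and 1870.2 units on the vehicle, 10 nM and 20 nM arrays and was 2.24-fold higher at 20 nM. ZNF263 had 653, 818 and 1499 units, log2 1.29, and ZNF281 had 239, 317 and 457 units, log2 1.39. ZNF24 had 174, 202 and 254 units, log2 1.09. Without background correction ZNF281 was at 0.97 and ZNF24 at 0.58, both within 2-fold. ZNF91, which represses SVA retrotransposons, had 518, 734 and 929.8 units and lay just inside 2-fold at log2 0.97. ZNF274, which recruits SETDB1 to the ends of ZNF genes, had 769.8, 745 and 1078 units, log2 0.50, within 2-fold. ZNF395, ZNF384, ZNF462 and ZNF518A were also within 2-fold, at log2 -0.33, 0.39, 0.77 and 0.09, the last at -0.02 with median scaling.

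Of 4 ZNF genes listed for ribosome biogenesis and translation, 3 were measured, and 1 was lower at 20 nM. ZNF593, whose yeast counterpart Bud20 acts in export of the large ribosomal subunit, had 872, 562 and 393 units on the vehicle, 10 nM and 20 nM arrays and was 2.58-fold lower at 20 nM. ZNF622, a late maturation factor of the same subunit, had 1139, 1130.2 and 1687 units, log2 0.57. ZNF598, a ubiquitin ligase at collided ribosomes, had 189.7, 209 and 203 units, log2 0.27. The signals of these ribosome-linked genes thus lay on different sides of vehicle at 20 nM.

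Of 5 listed for RNA and splicing, 4 were measured and none was past 2-fold. ZNF207, which carries BUB3 to kinetochores, had 1993, 1449 and 1388 units over the arrays in dose order, log2 -0.60. ZNF326, of the DBIRD complex that links splicing and elongation, had 188, 161 and 154 units, log2 -0.64. ZNF638, an RNA- and DNA-binding nuclear protein, had 174, 184 and 213 units, log2 0.65, and ZNF830 had 700.4, 692 and 979 units, log2 0.50.

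Chromosome 19 held 116 of the 243 genes, and 263 of the 562 symbols in RefSeq. Of 113 detected at 20 nM or in vehicle, 20 were higher and 13 lower at 20 nM, with a median log2 fold change of 0.13. These are 17.7% and 11.5%, near the 15.0% and 12.8% of the 453 other named genes of chromosome 19, whose median was 0.03. ZNF genes of the remaining chromosomes had 21 higher and 22 lower of 122, median -0.19. With median scaling the chromosome 19 median was 0.01, with 17 higher and 15 lower, and without background correction 3 were higher and 2 lower.

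The following positions were singled out after their values were seen. On chromosome 10 none of 11 ZNF genes was higher at 20 nM and 5 were lower, with a median log2 fold change of -0.89. The 306 other detected named genes there had 44 higher and 57 lower, with a median of -0.12. On chromosome 8, none of 7 was higher and 4 were lower, or 1 without background correction, while the 283 other genes there had 42 higher and 56 lower. On chromosome 7, 4 of 18 were higher and none was lower, with a median of -0.22. The 396 other detected named genes there had 46 higher and 66 lower, with a near-equal median of -0.24. Without background correction 2 of the chromosome 7 ZNF genes were higher.

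Neighbouring ZNF genes less than 500 kb apart formed 20 runs of at least 3 genes, which hold 152 genes in all, and 11 of the runs lie on chromosome 19. The run counts below stand beside 14.7% higher and 16.6% lower over all named genes at 20 nM. In the chromosome 10 run of ZNF239, ZNF485 and ZNF32, all 3 were at least 2-fold lower at 20 nM, with a median of -2.13. ZNF32 had 711, 456 and 334 units on the vehicle, 10 nM and 20 nM arrays, log2 -1.36. All 3 were lower past 2-fold also without background correction, where the median was -1.08. On chromosome 7, the neighbours ZNF398 and ZNF212 were higher while ZNF777 of the same run had 300.2, 203 and 201 units, log2 -0.91.

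On chromosome 19 the run ZNF555, ZNF57 and ZNF77 had 2 of 3 higher and a median of 1.34. The run between ZNF302 and ZNF792 had 2 of 4 lower and a median of -0.86. The run of 17 genes between ZNF175 and ZNF845 had 2 higher and 4 lower, median -0.42. The longest, 27 genes between ZNF264 and ZNF446, had 7 higher and 2 lower of 25 detected, and its values ran between -1.75 and 1.62. Without background correction the first and second of these runs had no gene past 2-fold, the third had 1 lower and the longest had 1 higher and 1 lower. With median scaling the longest had 4 higher and 2 lower. Neighbours of this kind can be close paralogs, and whether their probes share signal was not tested.

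**Figure D5:**
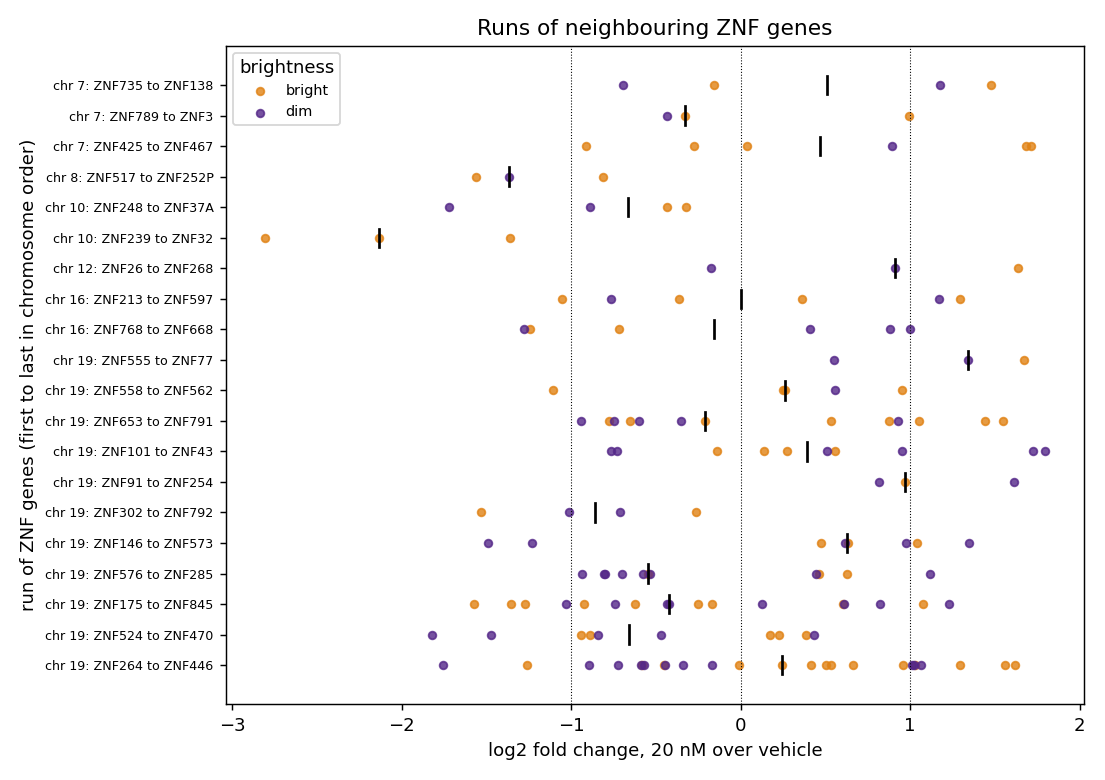
Log2 fold change of 20 nM over vehicle for each detected ZNF gene in 20 runs of neighbours, 1 row per run, with bright genes in orange, dim genes in purple, a black bar at the run's median and dotted lines at 0 and at 2-fold. The chromosome 10 run of ZNF239 lies wholly left of the lower 2-fold line (median -2.13), and the long chromosome 19 runs spread over both sides.

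Promoters of the genes farthest out are printed here, since ZNF239 and ZNF485 are neighbours that were both lower, and ZNF341 and ZNF143 were both higher. Each promoter is the 250 bases before the RefSeq start of the gene, 5′ to 3′ on the gene's strand in GRCh38.p14. ZNF341 lies at chr20:33731746-33731995 on the plus strand, ZNF143 at chr11:9460762-9461011 on the plus strand, ZNF239 at chr10:43574617-43574866 on the minus strand and ZNF485 at chr10:43606188-43606437 on the plus strand. Capitals mark matches to the 5 motifs searched on both strands.
ZNF341: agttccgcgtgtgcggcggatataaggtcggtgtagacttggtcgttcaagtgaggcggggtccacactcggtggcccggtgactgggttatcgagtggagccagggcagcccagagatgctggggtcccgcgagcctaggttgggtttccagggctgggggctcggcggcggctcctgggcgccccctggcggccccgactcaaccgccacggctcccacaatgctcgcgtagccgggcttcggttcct
ZNF143: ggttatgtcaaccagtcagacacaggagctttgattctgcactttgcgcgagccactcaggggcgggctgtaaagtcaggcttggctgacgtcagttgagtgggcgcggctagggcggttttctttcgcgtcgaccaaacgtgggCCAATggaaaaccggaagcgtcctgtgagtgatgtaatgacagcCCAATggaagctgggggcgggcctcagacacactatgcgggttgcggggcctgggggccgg
ZNF239: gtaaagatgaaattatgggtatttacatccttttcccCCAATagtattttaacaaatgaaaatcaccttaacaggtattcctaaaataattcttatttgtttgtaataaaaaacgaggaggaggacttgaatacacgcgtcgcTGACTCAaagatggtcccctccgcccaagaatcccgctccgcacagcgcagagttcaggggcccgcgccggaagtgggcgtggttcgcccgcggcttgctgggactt
ZNF485: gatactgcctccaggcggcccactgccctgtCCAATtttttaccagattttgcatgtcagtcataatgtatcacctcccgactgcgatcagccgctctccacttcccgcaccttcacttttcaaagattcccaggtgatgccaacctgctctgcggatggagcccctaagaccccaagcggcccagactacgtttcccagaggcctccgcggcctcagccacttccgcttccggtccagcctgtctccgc

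The motifs were CCAAT, the AP-1 sequence TGANTCA, the E-box CACGTG, the NRF1 motif and ACTACAA, part of the sequence that ZNF143 binds. The window of ZNF143 holds CCAAT at 2 places, that of ZNF239 holds an AP-1 match and CCAAT, and that of ZNF485 holds CCAAT. Of the 243 genes, 208 had a promoter in the table. CCAAT was in 51.4% of their windows and in 33.0% of all 27303 windows of the table. Those 27303 are not limited to genes named on the arrays, unlike the shares given elsewhere. ACTACAA was in 5.77% against 2.64%, the E-box in 4.33% against 6.49%, AP-1 in 4.81% against 6.60% and NRF1 in 1.44% against 1.13%. CCAAT was in 22 of the 38 windows of genes higher at 20 nM and in 10 of the 26 of genes lower. It was in 71 of the 138 windows of genes within 2-fold. ZNF windows also held more CpG, a median of 17.5 against 11. A match of letters is a description and says nothing of binding.

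The corepressor list of 35 genes had 27 named. Of 26 detected at 20 nM or in vehicle, 3 were higher and 3 lower at 20 nM, 11.5% each way, below the 14.7% and 16.6% of all named genes. The median log2 fold change was -0.32. TRIM28 itself had 426, 490.2 and 447 units on the vehicle, 10 nM and 20 nM arrays, log2 0.13. SETDB1 had 208, 251 and 176 units, log2 -0.41. Neither was past 2-fold.

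UHRF1, which guides maintenance methylation of DNA, had 805, 501 and 247 units over the arrays in dose order and was 4.71-fold lower at 20 nM. The maintenance methyltransferase DNMT1 had 2494, 1957 and 1198 units and was 2.21-fold lower, and the remodeller SMARCAD1 was 2.43-fold lower. TRIM24, a chromatin reader, was 2.19-fold higher and MORC2, a silencing ATPase, 2.16-fold higher. GATAD2B, a subunit of the NuRD complex, was not detected on vehicle and was at least 3.33-fold higher at 20 nM. At 10 nM, 1 of 26 was higher by value and none lower. The 1 was GATAD2B, undetected in vehicle and at its bound at least 1.42-fold higher, under the threshold. Without background correction none was higher and 2 were lower at 20 nM.

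Other zinc finger symbol families were counted in the same way, beside 14.7% higher and 16.6% lower over all named genes, and most hold few genes. Of 24 detected ZBTB genes, whose proteins pair zinc fingers with a BTB domain, 12 were higher and 3 lower at 20 nM, with a median log2 fold change of 1.03. Without background correction these were 3 and 1, with a median of 0.53. KLF genes had 3 higher and none lower of 5, and ZSCAN genes none higher and 2 lower of 6. ZFP genes had 2 higher and 3 lower of 9. ZKSCAN genes had 1 higher of 4 and ZFAND genes 1 higher and 1 lower of 6. ZC3H genes had 3 higher and 1 lower of 8, and ZDHHC genes 1 higher and 3 lower of 15.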

How the data were processed

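RNA of LNCaP cells was measured on 3 Illumina bead arrays, 1 each for vehicle, 10 nM bufalin and 20 nM bufalin, grouped by the treatment in the labels. The deposited table gives 47323 probes, each with a linear intensity per array that is not normalized, per the file headers. A deposited detection p-value stands beside each intensity. BeadStudio 3.0 is named in the submitters' processing notes. A second table by the authors holds 13753 of the probes, and all 41259 of its intensity values equal those of the larger table exactly. Those probes, with 1 exception, are exactly the ones with detection p-values under 0.05 on 2 or more arrays whose intensity differed from vehicle by 10% or more at 10 or 20 nM. All columns used belong to samples of the series.

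Gene names came from the platform annotation of those probes, of which 10952 had 1 symbol, 2 had several and 2799 had none. Of the identifiers, 10947 were found in the RefSeq gene table, and the update of symbols changed no ZNF gene. Of 289 ZNF probes, the one with the highest mean per gene was used. No genome build is given for the probes.

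Background was removed with normexp fitted from the detection p-values, 16 was added, the arrays were quantile normalized and log2 was taken (limma 3.58.1, R 4.3.3). A gene counted in a comparison if detected on at least 1 of its 2 arrays. For a gene detected on 1 array, the bound sets the detected value against the higher of the other array's value and the lowest value of any detected probe there. The steps were tested on simulated data with changes larger than 2-fold in probes well above background. That test did not cover 2-fold calls near background. The number of arrays limits the precision, and with 1 per treatment no test was made.

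The members, gene lists, comparisons and alternatives were chosen with earlier results of these data known. Genes are named by a rule: the farthest in each direction per comparison among those detected on both arrays (10 at 20 nM, 6 at 10 nM, 5 between the doses), 5 per direction and bufalin dose detected on 1 array, the 8 brightest, the 6 with the widest range between probes, a fixed panel and the corepressor genes past 2-fold. Others appear as members of a run, a list or a count and were chosen after their values were seen. The NRF1 motif searched has 10 letters. Promoter sequences are from RefSeq (GRCh38.p14), where 208 of the 243 genes matched. Protein features were not analysed here.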

Additional observations from a re-analysis of the deposited data

How the results depend on the processing

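Background correction decides how many ZNF genes pass 2-fold. Without it, 13 were higher and 10 lower at 20 nM against vehicle, 1 higher and 1 lower at 10 nM, and 1 higher and 0 lower between the doses, and at 20 nM 22 bright genes and 1 dim gene were past 2-fold. With the deposited intensities as they stand these were 15 and 10, 1 and 1, 1 and 0, and 24 bright and 1 dim. With an offset of 50 the lower count at 20 nM was 20, the 10 nM counts were 2 higher and 1 lower, those between the doses 7 higher and 1 lower, and 11 dim genes were past 2-fold. Both the missing correction and the larger offset shrink folds of dim genes by construction. Among genes detected on both arrays, 22 were lower at 20 nM with a median log2 fold change of 0.14, 3 were lower between the doses and 13 dim genes were past 2-fold. Here fewer genes were counted. Taking genes detected on 1 array at their bound left 3 lower between the doses, and averaging the probes of a gene left 3 lower at 10 nM, where the cause was not tested. With bright defined by detection on all 3 arrays, 22 dim genes were past 2-fold, and 18 when the members were divided into 3 equal parts by brightness and the lowest part was taken. Median scaling, symbols as annotated, protein-coding genes only and a detection p-value below 0.05 kept the 6 counts over all ZNF genes and both the bright and the dim counts within 1.5 times their main values. Median scaling moved smaller counts more, with 5 in place of 2 chromosome 19 genes lower between the doses. Of the 207 values of named genes over the comparisons, 3 turned their sign under the 4 settings of background, offset and scaling. These were ZNF738 at 10 nM, ZNF518A at 20 nM and ZNF37A between the doses, all at a log2 size of at most 0.09 in the main setting. Divided by the vehicle signal alone, an alternative chosen after seeing the data, 41 bright and 35 dim genes were past 2-fold. The direction on each side was turned, which this division favours by construction because the fold is taken over the vehicle signal. No paired analysis was possible because each treatment had 1 array, and for the same reason no array could be left out. Signal over background limits the dim genes most.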
